A study of Mus musculus with 4 samples.

Results

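9 genes of retinoid metabolism and alcohol oxidation were followed in mammary tumours of MMTV-Neu mice, out of 38293 genes in the deposited count files. The 9 genes were chosen by name as a pathway, with earlier results of these data known, and Adh1 was selected on its higher level in the AXL KO libraries. The difference of Adh1 is therefore a description and carries no test here. The other 8 genes are Adh7, Rdh10, Aldh1a1, Aldh1a2, Aldh1a3, Cyp26b1, Crabp2 and Stra6. All 9 had at least 1 read in the series, and 7 passed the filter on low counts, while Adh7 and Stra6 did not.

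Vitamin A circulates as retinol, which cells take up, store as esters or oxidise. Alcohol dehydrogenases and short-chain dehydrogenases turn retinol into retinal, and aldehyde dehydrogenases of the Aldh1a group turn retinal into retinoic acid. Retinoic acid binds nuclear receptors of the RAR and RXR families, and enzymes of the Cyp26 group degrade it. In the mammary gland, Aldh1a3 is known as a gene of luminal progenitor cells, and aldehyde dehydrogenase activity is widely used to mark progenitor-like tumour cells.

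The series holds 2 AXL KO tumour libraries and 2 WT tumour libraries, all from FVB mice. The AXL KO animals lack both copies of the receptor tyrosine kinase gene Axl and the WT animals carry both, and the animals of both groups bear the MMTV-Neu transgene, in which a mammary tumour virus promoter drives the rat Neu oncogene mainly in mammary epithelium. Ages, the way the Axl allele was made and whether each library is a separate animal are not stated, so every SD and test measures only the spread between these samples. Gene counts came to 19161051 and 33131739 reads in AXL KO replicates 1 and 2, against 21276336 and 18929743 reads in WT replicates 1 and 2. Levels are given in CPM, read counts scaled to the size of each library. Axl was at 4.75 and 4.89 CPM in AXL KO, against 61.8 and 35.2 CPM in WT. The log2 difference of Axl was −3.33 ± 0.35 (SE), which edgeR did not call (adjusted p = 0.9997) and DESeq2 did (adjusted p = 4.17e-13). The epithelial gene Epcam lay between 966 and 1342 CPM and the keratin gene Krt8 between 529 and 928 CPM over the 4 libraries. Of 10 tumour epithelium markers, both AXL KO libraries were above both WT libraries for 1, Erbb2. They were below for 2, Krt18 and Cldn7, and all genes tested gave 14.7% and 14.5%. Erbb2 was at 19780 and 19980 CPM in AXL KO, against 10970 and 12590 CPM in WT (edgeR adjusted p = 0.9997). Erbb2, Krt18 and Cldn7 were named after their values were seen. WT replicate 2 stood apart, with a chi-square of 132 to 151 per degree of freedom against the other libraries, while the 3 pairs without it had 30.3 to 56.0. The description of AXL KO replicate 2 has another prefix than those of the other 3 libraries, and values without that library are those within the shared prefix.

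Adh1 encodes the class I alcohol dehydrogenase, which oxidises ethanol and also retinol, and is best known from liver. Adh1 (ENSMUSG00000074207) lies on the plus strand of chromosome 3 from 138260991 to 138290698 in GRCm38. It had 212 and 223 counts in AXL KO replicates 1 and 2, against 56 and 21 counts in WT replicates 1 and 2. These counts correspond to 11.3 and 6.69 CPM in AXL KO, with 95% exact binomial intervals of 9.85 to 13.0 and 5.84 to 7.63 CPM, against 2.62 and 1.10 CPM in WT, with intervals of 1.98 to 3.40 and 0.681 to 1.68 CPM. Both AXL KO libraries were thus above both WT libraries, and no interval of an AXL KO library met one of a WT library. These intervals cover counting error only.

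The mean of Adh1 was 9.01 ± 3.28 CPM in AXL KO tumours and 1.86 ± 1.07 CPM in WT tumours (SD, n = 2 each). The log2 difference was 2.26 ± 0.55 (SE), a 4.79-fold higher level in AXL KO. Single AXL KO libraries were between 2.55 and 10.3 times single WT libraries. The log2 difference was 1.77 without WT replicate 2, 3.02 without WT replicate 1, 1.83 without AXL KO replicate 1 and 2.58 without AXL KO replicate 2. The difference was positive in each of these fits, and its size depended most on which WT library stayed in. In all genes tested, 14.7% had both AXL KO libraries above both WT libraries. Because Adh1 was selected on this contrast, nothing is read from its place among them.

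**Figure D1:**
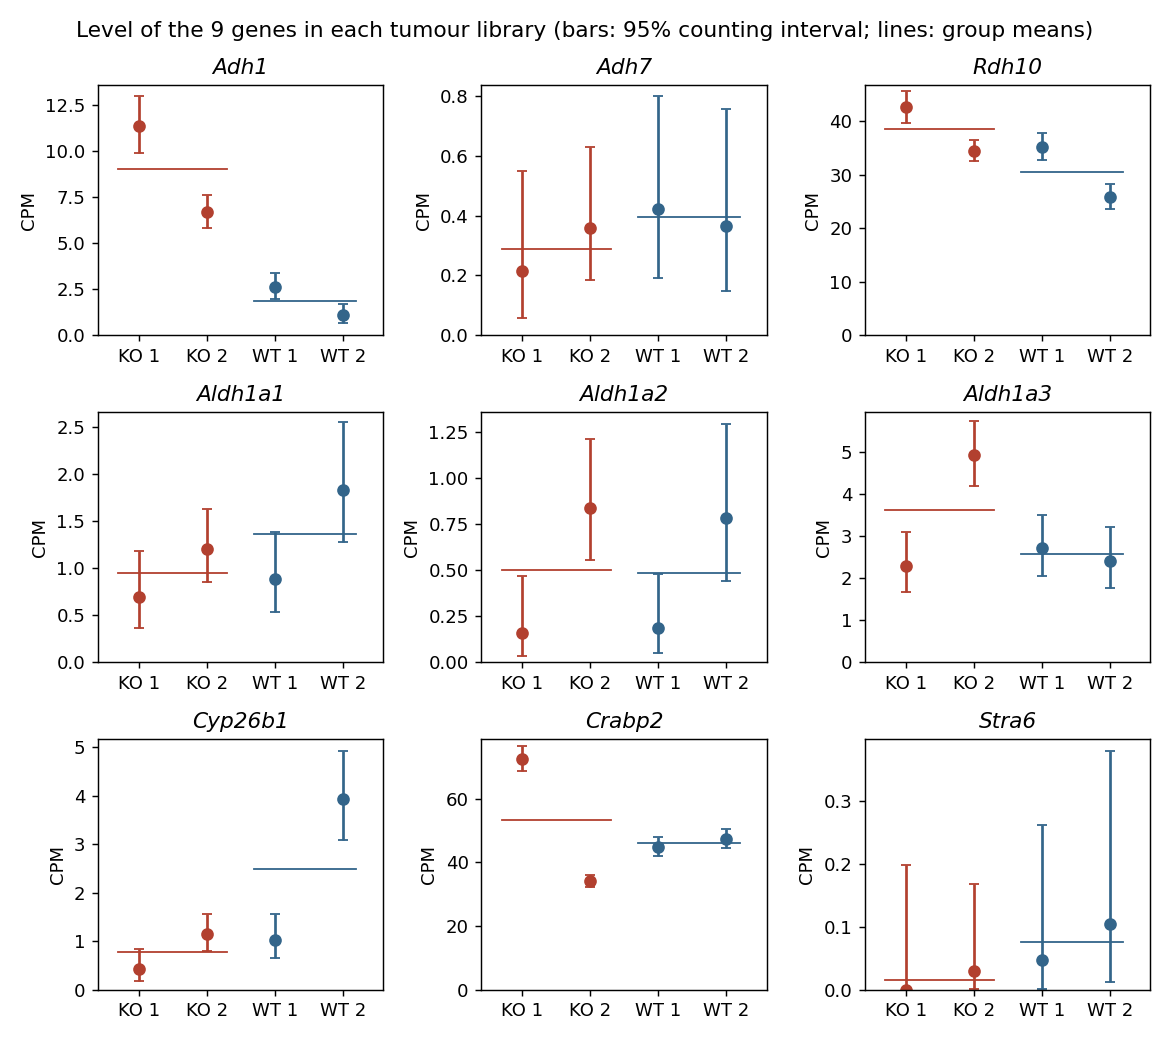
Level of each of the 9 genes in CPM (vertical axis, linear from 0) in AXL KO replicates 1 and 2 (red) and WT replicates 1 and 2 (blue), with 95% counting intervals as bars and group means as lines. Adh1 had 11.3 and 6.69 CPM in AXL KO and 2.62 and 1.10 CPM in WT, while the other 6 genes that passed the low-count filter overlapped between the groups.

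The stretch upstream of Adh1 is shown because it is the gene whose level differed most among the 9, and beside it stands that of Adh5, the neighbour with a nearly constant level. Both are from RefSeq on GRCm38.p6, plus strand, 5′ to 3′, with CG dinucleotides in capitals. The Adh1 stretch, chr3:138277335-138277493, runs from 250 to 92 bases before the RefSeq start. It lies inside the longer gene span that GENCODE M21 gives Adh1 and holds no annotated exon. The stretch of Adh5, chr3:138442843-138443092, covers the 250 bases before the more downstream of its RefSeq starts.
Adh1: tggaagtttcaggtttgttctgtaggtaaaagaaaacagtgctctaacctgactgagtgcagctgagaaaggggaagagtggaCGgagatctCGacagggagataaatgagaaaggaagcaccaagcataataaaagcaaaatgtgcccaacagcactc
Adh5: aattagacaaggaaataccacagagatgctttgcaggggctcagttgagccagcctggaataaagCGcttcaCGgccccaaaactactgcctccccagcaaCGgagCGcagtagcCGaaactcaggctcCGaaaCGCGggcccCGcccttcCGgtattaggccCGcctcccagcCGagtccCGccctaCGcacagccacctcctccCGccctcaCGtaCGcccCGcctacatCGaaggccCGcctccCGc

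The Adh1 stretch held 2 CG dinucleotides in 159 bases and had a G+C content of 44.7%. The Adh5 stretch held 21 in 250 bases and had a G+C content of 63.6%. Over the full 250 bases before each start, the ratio of observed to expected CG was ranked among 32851 promoter windows. It was at the 53.7th percentile for Adh1 and at the 88.1st for this start of Adh5. The window before the other RefSeq start of Adh5, chr3:138436950-138437199, held 2 CG dinucleotides and was at the 24th percentile. Its G+C content was 45.2%, so Adh5 was richer in CG than Adh1 before its more downstream start only.

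The 6 Adh genes of chromosome 3 lie in a row on the plus strand within 238 kb, and their levels differed widely in these tumours. Their order is Adh7, Adh1, Adh6a, Adh6b, Adh4 and Adh5. Adh6a, Adh6b and Adh4 had 0 counts in all 4 libraries, where 3 counts would be 0.0900 to 0.160 CPM depending on the library. Adh5, which encodes the widely expressed class III enzyme that handles glutathione-bound formaldehyde, was at 133 and 111 CPM in AXL KO, against 111 and 126 CPM in WT. The log2 difference of Adh5 was 0.04 ± 0.19 (SE; edgeR adjusted p = 0.9997). The flanking genes Metap1 and Eif4e had log2 differences of 0.02 ± 0.25 and −0.06 ± 0.16, and Mttp and Trmt10a on the other side 0.26 ± 0.29 and −0.19 ± 0.40 (SE; edgeR adjusted p = 0.9997 for each). Of the cluster only Adh1 and Adh5 were tested. Among them and the flanking genes, Adh1 alone had a difference above 1 on the log2 scale. Because Adh1 was selected for its difference, nothing is read from this. These flanking genes were chosen by position and named after their values were seen.

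Scaled to exon length, Adh1 was at 5.07 and 3.0 CPM per kb in the AXL KO libraries, against 1.17 and 0.492 CPM per kb in the WT libraries. Adh5 was at 24.6 and 20.4 CPM per kb in the AXL KO libraries, against 20.5 and 23.3 CPM per kb in the WT libraries. Adh1 made up 17.1% and 12.7% of the summed level of Adh1, Adh5 and Adh7 per kb in the AXL KO libraries, against 5.38% and 2.06% in the WT libraries. Adh5 held most of that sum in every library.

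**Figure D2:**
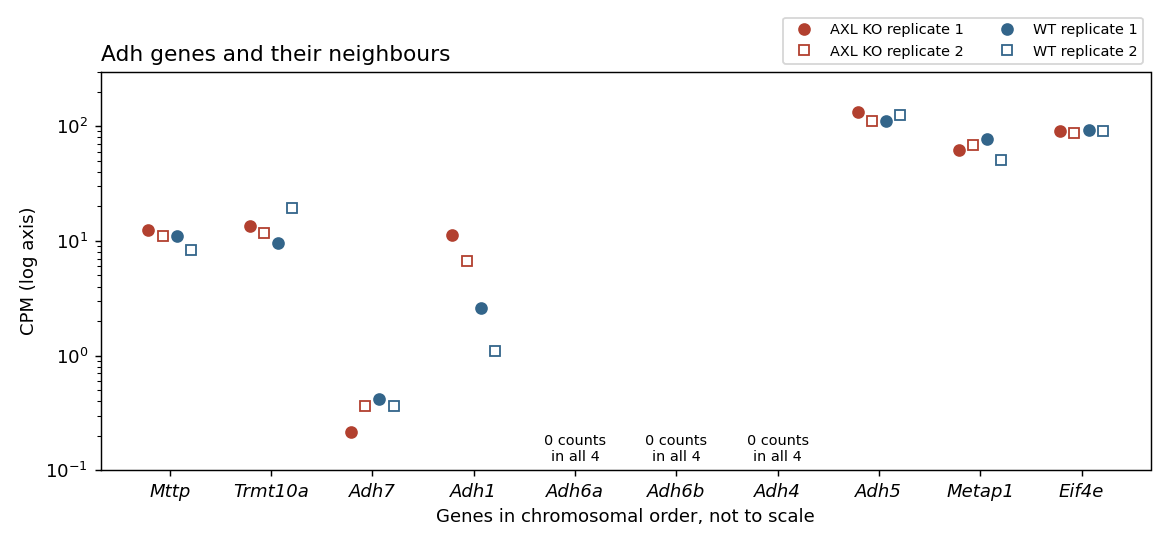
CPM on a log axis of the Adh genes of chromosome 3 and of 2 genes on either side, in chromosomal order and not to scale, for AXL KO (red) and WT (blue) libraries, with replicate 1 filled and replicate 2 open. Adh1 is spread from 1.10 CPM in WT replicate 2 to 11.3 CPM in AXL KO replicate 1, while Adh5 stays between 111 and 133 CPM and Adh6a, Adh6b and Adh4 have no reads.

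Adh7 encodes the class IV enzyme, an efficient retinol dehydrogenase of stomach and other epithelia. It had 4 and 12 counts in the AXL KO libraries, against 9 and 7 counts in the WT libraries, which is 0.214 and 0.360 CPM in AXL KO, against 0.421 and 0.367 CPM in WT. The gene lies just before Adh1, at bases 138217760 to 138233382. The counting intervals of all 4 libraries overlapped. With 4 to 12 reads a library, a difference in Adh7 was not detectable at this depth.

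Markers of liver and of adipose tissue were set beside Adh1, since both tissues hold the enzyme. The 7 liver markers summed to 15.6 and 10.9 CPM in AXL KO, against 3.32 and 6.02 CPM in WT, and 2 of the 7 passed the low-count filter. Those 2 were Ahsg, which encodes fetuin A, and the cytochrome P450 gene Cyp2e1. Both had an unadjusted p under 0.05 and neither passed the adjusted threshold (edgeR adjusted p = 0.9997). Ahsg was at 10.5 and 5.49 CPM in AXL KO, against 1.54 and 3.30 CPM in WT. Cyp2e1 was at 5.02 and 4.59 CPM in AXL KO, against 1.64 and 2.51 CPM in WT. The defining liver genes Alb, Apoa1 and Ttr were at or under 0.157 CPM in every library, with 0 counts for all 3 in AXL KO replicate 1. The other 2 liver markers had reads in AXL KO alone. Fgb had 0 and 19 counts in AXL KO, 0.570 CPM in replicate 2, against 0 and 0 counts in WT. Serpina1a, of a family of near-identical copies whose counts are uncertain, had 1 and 2 counts in AXL KO, against 0 and 0 counts in WT. The 10 adipocyte markers summed to 147 and 158 CPM in AXL KO, against 94.4 and 186 CPM in WT, so those groups overlapped. The part of these cell types in the level of Adh1 was not tested. In whole tumours, fewer cells of a type and less RNA per cell cannot be told apart.

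The 3 genes whose profile over the 4 libraries was nearest to that of Adh1 were Rgs9, Gprasp2 and Map9, among 12342 genes with a symbol and a mean of at least 1 CPM. The distance between centred log2 CPM profiles was 0.26, 0.34 and 0.40. Gprasp2 was at 9.67 and 4.89 CPM in AXL KO, against 2.62 and 0.838 CPM in WT. With 4 libraries such likeness describes the ranking and shape of the values alone.

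Rdh10, the short-chain dehydrogenase that makes retinal from retinol and is the main such enzyme of the mouse embryo, was a well-expressed member. It lies on the plus strand of chromosome 1 from 16105774 to 16133734. Rdh10 was at 42.6 and 34.5 CPM in AXL KO, against 35.2 and 25.8 CPM in WT. The groups overlapped, since AXL KO replicate 2 lay below WT replicate 1. The log2 difference was 0.34 ± 0.25 (SE; edgeR adjusted p = 0.9997). It was 0.13 without WT replicate 2, 0.17 without AXL KO replicate 1 and 0.58 without WT replicate 1. The gene did not pass the test.

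Crabp2, which encodes the binding protein that carries retinoic acid to its nuclear receptors, had the highest level per length of the 9 genes. It lies on the plus strand of chromosome 3 from 87948666 to 87953376. Crabp2 was at 72.5 and 34.1 CPM in AXL KO, against 44.9 and 47.4 CPM in WT. The WT libraries lay between the AXL KO libraries, so the spread within AXL KO was larger than the difference between the groups. The mean was 53.3 ± 27.1 CPM in AXL KO and 46.1 ± 1.76 CPM in WT (SD, n = 2 each), and the log2 difference was 0.21 ± 0.37 (SE; edgeR adjusted p = 0.9997). It was −0.44 without AXL KO replicate 1 and 0.63 without AXL KO replicate 2, so that 1 library set its sign.

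The 3 retinal dehydrogenases were all low, and none passed the test. Aldh1a3 was the most abundant of them, at 2.30 and 4.92 CPM in AXL KO, against 2.71 and 2.41 CPM in WT. AXL KO replicate 2 stood above the other 3 libraries, which lay close together. Aldh1a3 is on chromosome 7 (66390890 to 66427517, minus strand), Aldh1a1 on chromosome 19 (20492715 to 20643465, plus strand) and Aldh1a2 on chromosome 9 (71215789 to 71296243, plus strand). The log2 difference was 0.51 ± 0.49 (SE; edgeR adjusted p = 0.9997), and it was −0.17 without AXL KO replicate 2 and 0.93 without AXL KO replicate 1. Aldh1a1, the form best known from the liver and from stem-like cells, was at 0.694 and 1.20 CPM in AXL KO, against 0.888 and 1.83 CPM in WT. Its groups overlapped, with WT replicate 2 highest, and the log2 difference was −0.48 ± 0.59 (SE; edgeR adjusted p = 0.9997). It was 0.14 without WT replicate 2, −0.18 without AXL KO replicate 1, −0.97 without AXL KO replicate 2 and −0.90 without WT replicate 1. Aldh1a2, the main retinal dehydrogenase of embryonic mesoderm, was at 0.160 and 0.840 CPM in AXL KO, against 0.187 and 0.785 CPM in WT. Each group held a low and a high library, and the log2 difference of 0.18 ± 0.99 (SE; edgeR adjusted p = 0.9997) was the least certain of the 7. It was 0.80 without AXL KO replicate 1, −1.56 without AXL KO replicate 2, −0.49 without WT replicate 1 and 1.55 without WT replicate 2.

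Per kb of exon, Aldh1a3 made up 70.2% and 63.4% of the summed level of the 3 retinal dehydrogenases in the AXL KO libraries, against 69.1% and 42.1% in the WT libraries. Aldh1a2 made up 9.98% and 22.1% in the AXL KO libraries, against 9.72% and 28.0% in the WT libraries. Aldh1a3 was thus the leading form in all 4 libraries, least so in WT replicate 2. Aldh1a1 shared 3.06% of its transcript 50-mers with another gene, mainly its neighbouring copy Aldh1a7, so a small part of its counts is uncertain. Aldh1a7 itself had 2 and 12 counts in the AXL KO libraries, against 6 and 16 counts in the WT libraries.

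Cyp26b1, a hydroxylase that inactivates retinoic acid, was at 0.427 and 1.14 CPM in AXL KO, against 1.03 and 3.93 CPM in WT. WT replicate 2 was far above the rest, and AXL KO replicate 2 lay just above WT replicate 1, so the groups overlapped. Its minus-strand gene spans bases 84571414 to 84593908 of chromosome 6. The log2 difference was −1.58 ± 0.83 (SE; edgeR adjusted p = 0.9997), and it was −0.30 without WT replicate 2 and −2.53 without AXL KO replicate 2. The related Cyp26a1 and Cyp26c1 had at most 2 counts in any library.

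Stra6, the cell-surface receptor that takes up retinol from its plasma carrier, had 0 and 1 counts in the AXL KO libraries, against 1 and 2 counts in the WT libraries. Stra6 is on the plus strand of chromosome 9, at bases 58063788 to 58153996. In AXL KO replicate 1 a limit of 3 counts is 0.160 CPM, and the 95% two-sided exact interval for its 0 counts reaches 0.197 CPM. The counting intervals of all 4 libraries overlapped, and a difference was not detectable at this depth. The related receptor gene Stra6l was at 1.07 and 1.29 CPM in AXL KO, against 0.655 and 0.471 CPM in WT, with a log2 difference of 1.06 ± 0.51 (SE; edgeR adjusted p = 0.9997).

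The order of the 9 genes by mean level per kb of exon was Crabp2 at 37.6, Rdh10 at 8.30, Adh1 at 2.43, Aldh1a3 at 0.668, Cyp26b1 at 0.305, Aldh1a1 at 0.234, Aldh1a2 at 0.218, Adh7 at 0.0898 and Stra6 at 0.00778 CPM per kb. Crabp2 was above Rdh10 and Rdh10 above Adh1 in all 4 libraries, with ranges that did not meet. From Adh1 to Adh7 each gene's range over the libraries overlapped that of the next, so the order of these neighbours is not firm. From Adh1 to Aldh1a2 each gene was above the next in 3 of 4 libraries, except Cyp26b1, which was above Aldh1a1 in 2. Adh1 lay above Aldh1a3 in 3 of 4 libraries, WT replicate 2 being the exception.

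Of the 8 members besides Adh1, 6 were tested and 0 were called at an adjusted p of 0.05 when edgeR's quasi-likelihood test was used with Benjamini-Hochberg adjustment. In the whole table the same test called 0 of 14330 genes, a share of 0%, and 314 genes, 2.19%, had an unadjusted p under 0.05. None of the 6 had an unadjusted p under 0.05. The same test did not call Axl, the gene knocked out, so a member that was not called may still differ. DESeq2 called 17 genes, 0.0894% of those with an adjusted p, and 0 of the 8 members. Without WT replicate 1 edgeR called 216 genes, 1.51%, and 0 of the 6 members tested in that fit. Of the 7 members that passed the filter, Adh1 among them, 5 had a positive log2 difference and 2 a negative one. Their median was 0.21, where 49.7% of all genes tested were positive, with a median of −0.0019. Both AXL KO libraries were above both WT libraries for 1 of the 7, Adh1, and below for 0, where all genes tested gave 14.7% and 14.5%. Adh1 was selected on this contrast and is among the 5 positive ones, so nothing is read from these counts or from the median.

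**Figure D3:**
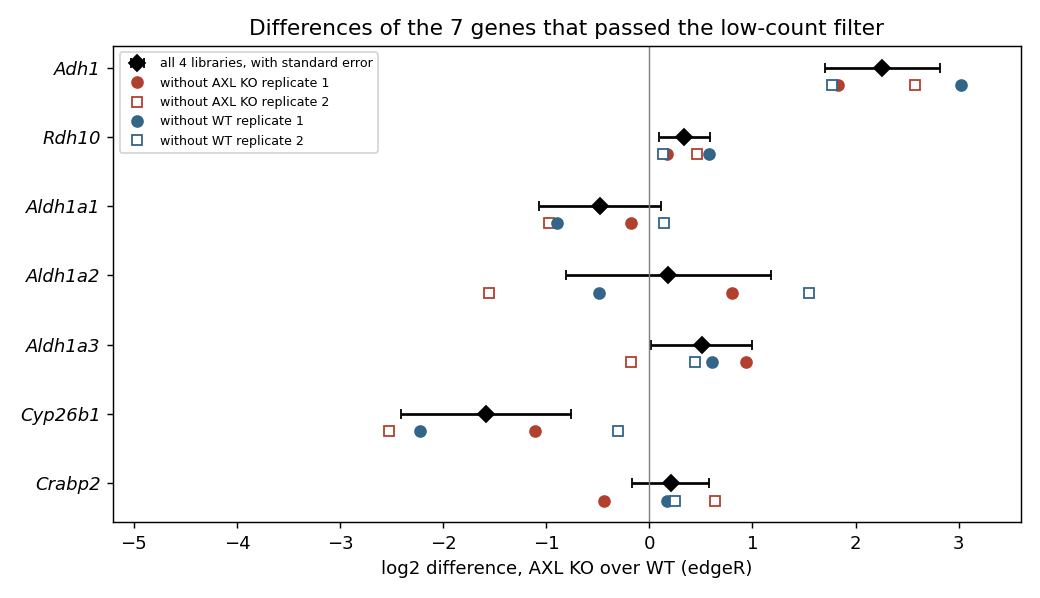
Log2 difference, AXL KO over WT, of the 7 genes that passed the low-count filter, with all 4 libraries (diamond, bar for the standard error) and with each library left out (coloured points, named by the library left out). Adh1 stays between 1.77 and 3.02, while Aldh1a1, Aldh1a2, Aldh1a3 and Crabp2 each cross 0 when a single library is left out.

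Aldh1a1 and Cyp26b1 ranked the 4 libraries in the same order as the summed fibroblast markers did, and Aldh1a2 nearly so. These 3 genes were set beside the markers after their values were seen. The 12 fibroblast markers, among them Col1a1 and Dcn, were all detected and summed to 391 and 1231 CPM in AXL KO replicates 1 and 2, against 882 and 1346 CPM in WT replicates 1 and 2. AXL KO replicate 1 was lowest and WT replicate 1 next lowest for this sum and for Aldh1a1, Aldh1a2 and Cyp26b1. Aldh1a1 and Cyp26b1 were then highest in WT replicate 2, as the sum was. Aldh1a2 was highest in AXL KO replicate 2, by a difference within its counting error. Single markers did not all keep the order of the sum. Dcn was at 59.8 CPM in AXL KO replicate 2 and 56.6 CPM in WT replicate 2, and Pdgfra was lowest in WT replicate 2, at 13.25 CPM. With 4 libraries the likeness in order is a description. The part of fibroblasts in the levels of Aldh1a1, Aldh1a2 and Cyp26b1 was not tested. The fibroblast sum did not follow Adh1, which was highest in AXL KO replicate 1.

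**Figure D4:**
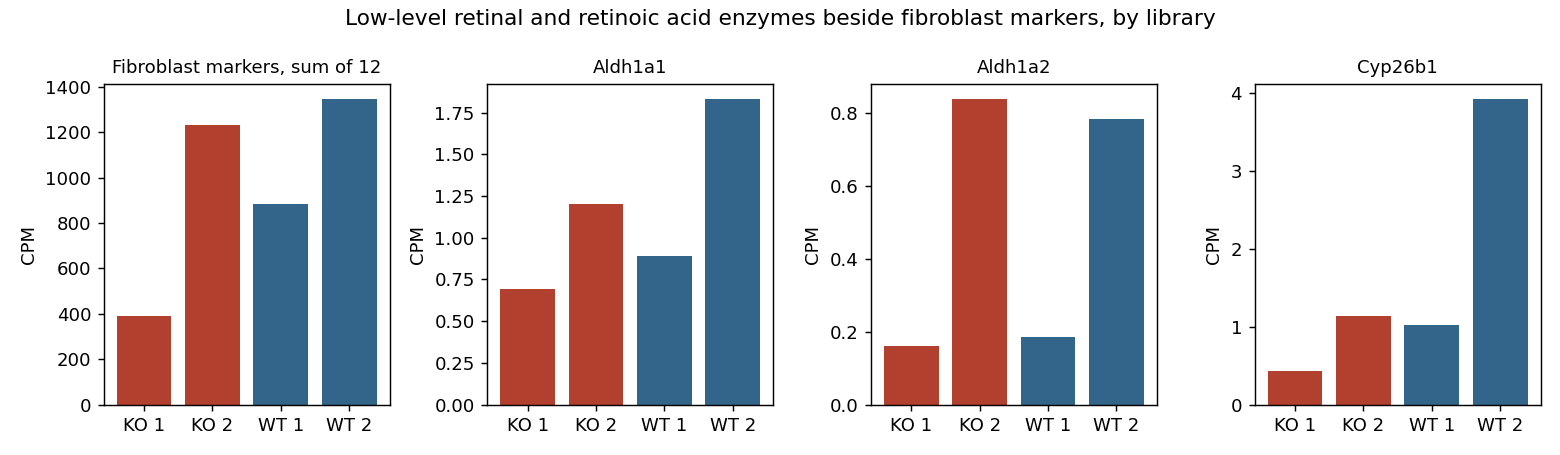
Summed CPM of the 12 fibroblast markers and CPM of Aldh1a1, Aldh1a2 and Cyp26b1 in AXL KO replicates 1 and 2 (red bars) and WT replicates 1 and 2 (blue bars), on linear axes from 0. In each panel AXL KO replicate 1 is lowest and WT replicate 1 next lowest, and the marker sum runs from 391 to 1346 CPM. The counting intervals of AXL KO replicate 1 and WT replicate 1 overlap for Aldh1a1, Aldh1a2 and Cyp26b1.

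The wider retinoid pathway was read from lists of 81 further genes, of which 51 were tested and 0 were called by edgeR. Their median log2 difference was −0.04, beside a median of −0.0019 over all genes tested. Of the differences 23, 45.1%, were positive and 28 negative, where 49.7% of all genes tested were positive. Both AXL KO libraries were above both WT libraries for 9 of the 51, 17.6%, and below for 8, 15.7%, where all genes tested gave 14.7% and 14.5%. An unadjusted p under 0.05 was reached by 3 of the 51, 5.88%, namely Aldh1b1, Fabp5 and Ucp1, where all genes tested gave 2.19%.

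Of 5 other alcohol dehydrogenases 2 were tested, Adh5 and Adhfe1, and the other 3 had no reads. Adhfe1, an iron-containing transhydrogenase of mitochondria, was at 1.44 and 1.74 CPM in AXL KO, against 0.421 and 1.52 CPM in WT, with a log2 difference of 0.74 ± 0.68 (SE; edgeR adjusted p = 0.9997). It was 0.08 without WT replicate 1 and 1.92 without WT replicate 2. Among 17 other retinol and retinal oxidoreductases 9 were tested, with 6 positive and 3 negative differences and a median of 0.16. Rdh14, another retinol dehydrogenase gene, was at 42.4 and 36.6 CPM in AXL KO, against 34.6 and 27.1 CPM in WT, with a log2 difference of 0.36 ± 0.22 (SE; edgeR adjusted p = 0.9997). It was 0.19 without WT replicate 2 and 0.54 without WT replicate 1. Rdh13, a mitochondrial retinol dehydrogenase, was at 30.5 and 27.3 CPM in AXL KO, against 27.5 and 22.0 CPM in WT, so its groups overlapped. The most abundant by CPM was Dhrs7, at 114 and 113 CPM in AXL KO, against 119 and 115 CPM in WT. Its groups did not overlap, yet its log2 difference was −0.04 ± 0.16 (SE).

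Of 11 other aldehyde dehydrogenases 8 were tested, with 1 positive and 7 negative differences and a median of −0.15. The positive share was 12.5%, where all genes tested gave 49.7%, and nothing particular to the list is read from it. Aldh1b1, a mitochondrial aldehyde dehydrogenase, was at 0.961 and 1.23 CPM in AXL KO, against 0.421 and 0.419 CPM in WT. Its log2 difference was 1.39 ± 0.52 (SE; edgeR adjusted p = 0.9997). Aldh2, which clears acetaldehyde in mitochondria and was the most abundant of this list, was at 767 and 740 CPM in AXL KO, against 869 and 638 CPM in WT. It overlapped between the groups. Aldh1l2, a mitochondrial folate enzyme, was at 4.59 and 10.8 CPM in AXL KO, against 8.84 and 21 CPM in WT.

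Of 15 genes of retinoid uptake, storage and transport 9 were tested, with 5 positive and 4 negative differences and a median of 0.03. Fabp5, a fatty acid binding protein that can also carry retinoic acid, was at 31.9 and 40.5 CPM in AXL KO, against 18.6 and 21.9 CPM in WT. Both AXL KO libraries were above both WT libraries, with a log2 difference of 0.84 ± 0.23 (SE; edgeR adjusted p = 0.9997). Lrat, which makes retinyl esters for storage, had 1 count in each library.

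Of 4 further genes of retinoic acid hydroxylation only Cyp2s1 was tested, at 0.534 and 0.960 CPM in AXL KO, against 0.982 and 1.52 CPM in WT. Its log2 difference was −0.69 ± 0.55 (SE; edgeR adjusted p = 0.9997). It was −0.33 without WT replicate 2, −0.38 without AXL KO replicate 1 and −1.23 without AXL KO replicate 2.

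The retinoic acid receptors and cofactors gave 13 tested genes of 14, with 4 positive and 9 negative differences and a median of −0.16. Both AXL KO libraries were above both WT libraries for 2 of the 13, 15.4%, and below for 4, 30.8%, where all genes tested gave 14.7% and 14.5%. Nothing particular to the list is read from these counts. Rarb, the receptor gene that retinoic acid itself induces in many cells, was at 6.25 and 6.12 CPM in AXL KO, against 3.79 and 1.15 CPM in WT. Its log2 difference was 1.31 ± 0.60 (SE; edgeR adjusted p = 0.9997), and it was 0.71 without WT replicate 2 and 2.42 without WT replicate 1. Rxra, which encodes a partner of many nuclear receptors, was at 73.9 and 85.1 CPM in AXL KO, against 100.4 and 106 CPM in WT, with a log2 difference of −0.38 ± 0.17 (SE; edgeR adjusted p = 0.9997). Rara, Rarg and Rxrb were named after their values were seen, and for each both AXL KO libraries were below both WT libraries. Rara was at 7.26 and 11.2 CPM in AXL KO, against 16.6 and 13.4 CPM in WT. Rarg was at 55.3 and 55.3 CPM in AXL KO, against 59.7 and 100.7 CPM in WT. Rxrb was at 47.0 and 43.3 CPM in AXL KO, against 52.6 and 57.2 CPM in WT.

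Of 25 genes known to respond to retinoic acid in at least 1 cell type 15 were tested, with 7 positive and 8 negative differences and a median of −0.07. Several of them also stand in the other lists or among the 9 genes, so these counts share genes. Tgm2, a transglutaminase gene and the most abundant of the list by CPM, was at 207 and 194 CPM in AXL KO, against 158 and 231 CPM in WT. Ucp1, which encodes the heat-producing protein of brown adipocytes, was at 5.88 and 0.960 CPM in AXL KO, against 0.0935 and 0 CPM in WT. It had the smallest p of the list and did not pass edgeR's test (adjusted p = 0.9997), while DESeq2 called it (adjusted p = 0.0414). Ucp1 is itself among the 10 adipocyte markers, of which 8 had a positive and 2 a negative difference while their sums overlapped between the groups. Both AXL KO libraries were above both WT libraries for 2 of the 10, Ucp1 and Cidea, and below for 1, Lep, where all genes tested gave 14.7% and 14.5%. Cidea and Lep were named after their values were seen. Cidea, another brown fat gene, was at 2.83 and 2.07 CPM in AXL KO, against 0.281 and 1.36 CPM in WT. Lep was at 1.76 and 3.63 CPM in AXL KO, against 4.82 and 4.50 CPM in WT. The part of adipocytes in the level of Ucp1 was not tested. Btg2, an antiproliferative gene, was at 11 and 15.2 CPM in AXL KO, against 16.2 and 32.7 CPM in WT.

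The 250 bases before the RefSeq starts were searched for the hexamers AGGTCA and AGTTCA, as well as GGGTCA and also GGTTCA, to which retinoic acid receptors bind in pairs, on both strands. Pairs in the same direction with 1, 2 or 5 bases between them were counted. A single hexamer was present in 38.6% of 32851 windows, and Adh7 and Aldh1a1 each held 1. Each pair also counts as 2 hexamers. A pair was present in 0.426% of windows. Of the 9 genes, 6 had a window in the RefSeq table, Rdh10, Aldh1a3 and Crabp2 being the others, and 0 of the 6 held a pair. Among all 90 listed genes 64 had a window, and Rarb, Cyp26a1 and Bco1 held a pair. The 2 with a spacing of 5 bases are shown because both are genes that answer retinoic acid, and they were found in 0.0883% of all windows. The hexamers are in capitals, as read on the strand of the gene in GRCm38.p6. The Rarb pair lies at chr14:16575513-16575529 on the minus strand, starting 53 bases before the RefSeq start. GENCODE M21 places all 250 bases of that window in exons of Rarb or of Gm48162 on the opposite strand. The Cyp26a1 pair lies at chr19:37697776-37697792 on the plus strand, starting 32 bases before the RefSeq start of Cyp26a1.
Rarb: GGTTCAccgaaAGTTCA
Cyp26a1: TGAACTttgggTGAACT

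Rarb, with such a pair, had the levels given above, and Cyp26a1 had 0 and 2 counts in the AXL KO libraries, against 1 and 1 counts in the WT libraries. A match is a description of the letters and shows no binding.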

How the data were processed

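RNA of 2 AXL KO and 2 WT tumours was sequenced, and the deposited files hold whole-number read counts per Ensembl gene, without normalization. Per the submitters' processing notes, which give no roles or order, the build was GRCm38 and the tools were DESeq2 1.4.5, HTSeq 0.5.3, TopHat2 2.0.10 and CASAVA 1.8. No source used here states the annotation release, strand setting or read length, so reads on the 136 exon bases that Adh1 shares with the antisense gene Gm16559, and on the 108 that Adh7 shares with an antisense gene, cannot be assigned to a strand. Gm16559 had 1 count in AXL KO replicate 1 and 0 in the other libraries. The files list 38293 genes and end with 5 summary lines, which entered neither library sizes nor tests. Reads outside genes took 8.11% and 5.90% in AXL KO and 5.28% and 6.85% in WT, ambiguous reads 1.85% and 1.09% in AXL KO and 0.981% and 0.635% in WT, and alignments that were not unique 25.6% and 24.6% in AXL KO and 23.2% and 28.1% in WT. GENCODE M21 on GRCm38 matched 36429 gene IDs and supplied symbols, positions and exon lengths.

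Genes were kept with filterByExpr by group (14330 genes) and compared with edgeR 4.0.16 in R 4.3.3: TMM factors, glmQLFit with legacy=FALSE, glmQLFTest, no covariates, Benjamini-Hochberg adjustment over all 14330 genes and a threshold of 0.05. Standard errors are the log2 difference over the root of its F statistic. CPM values use the TMM factors for all genes. The edgeR test alone was checked on simulated counts. These held no outlying library such as WT replicate 2, so the check does not cover that feature of the data. DESeq2 1.42.0 and limma 3.58.1 were alternatives. Profiles nearest Adh1 used log2 CPM with a prior count of 2. The members and lists were chosen with earlier results of these data known. Named were all members, Axl and, in each wider list, the 2 tested genes with the smallest p and the 1 with the highest mean CPM, some of which are not reported here; others are marked where they appear.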

Additional observations from a re-analysis of the deposited data

How the results depend on the processing

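Over 11 alternatives the 7 tested members gave 76 values, of which 71 kept the sign of the log2 difference and 0 passed the threshold. Adh1, which was selected on this contrast, gave 11 of these values, and nothing is read from its sign. Fits that kept all 4 libraries used the same counts, so a kept sign says little there. The 5 values of opposite sign all came from leaving out 1 library. They were 0.14 for Aldh1a1 without WT replicate 2, −1.56 and −0.49 for Aldh1a2 without AXL KO replicate 2 and WT replicate 1, −0.17 for Aldh1a3 without AXL KO replicate 2 and −0.44 for Crabp2 without AXL KO replicate 1. Over the fits that left out 1 library these 4 genes ran from −0.97 to 0.14, −1.56 to 1.55, −0.17 to 0.93 and −0.44 to 0.63. Adh1 ran from 1.77 to 3.02 and Cyp26b1 from −2.53 to −0.30 over all alternatives. The cause was not tested. Aldh1a2 had no value under the 1 CPM filter.

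edgeR called 0 genes after scaling by library totals or by DESeq2 size factors, without a filter, and after a filter of 1 CPM or more in 2 libraries, and limma-voom called 0, with 269 to 473 genes at an unadjusted p under 0.05. The number called was 17 with DESeq2 and ran from 0 to 216 over the fits without 1 library, where only the fit without WT replicate 1 called any. Wider pathway genes called were 1 with DESeq2, Ucp1, and ran from 0 to 1 without 1 library, the 1 being Egr1 without WT replicate 1 (edgeR adjusted p = 0.0293). The titles give both groups the same replicate numbers, but same-numbered libraries did not deviate together (correlation −0.04 over 14330 genes). With the replicate block edgeR called 0 genes (571 had an unadjusted p under 0.05), and Adh1 had a log2 difference of 2.34. With 2 libraries a group and few reads, differences in Adh7, Stra6 and Aldh1a2 were not detectable. The main edgeR test did not call Axl either, so the other members may also differ without being called.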

Other observations

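Among the 45 tested genes of the wider retinoid pathway with a mean of at least 1 CPM and reads in every library, the widest spread between libraries was in Rbp7, Meis1, Rdh12 and Pck1, chosen after their values were seen. Rbp7, a retinol carrier gene of fat and endothelium, was at 87.0 and 15.1 CPM in AXL KO, against 5.42 and 110 CPM in WT, a 20.3-fold range. Rdh12, a retinal reductase gene best known from photoreceptors, was at 79.1 and 7.38 CPM in AXL KO, against 21.2 and 34.8 CPM in WT. Meis1, a homeobox gene, was at 3.26 and 5.67 CPM in AXL KO, against 5.38 and 0.367 CPM in WT. Pck1, which encodes a gluconeogenic enzyme, was at 8.60 and 13.9 CPM in AXL KO, against 2.24 and 21.6 CPM in WT. All 4 genes overlapped between the groups, so their spread lay within the groups.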
